A study of Mus musculus with 6 samples.

Results

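Endothelial BMP signalling and ID genes were described here as a set of 10 genes, chosen by symbol from the 49315 genes of the deposited count table. All 10 members were found, and all 10 passed the filter on low counts. They are the ligand genes Bmp2, Bmp4 and Bmp6, the receptor genes Bmpr2, Acvrl1 and Eng, the inhibitory SMAD gene Smad6, and the target genes Id1, Id2 and Id3. Messenger RNA was measured by poly(A)-selected RNA-seq of mid-ventricular heart tissue from adult mice. One group of 3 libraries came from mice labelled as an endothelial-specific TET2 knockout (TET2KO), and the other group of 3 from mice labelled wild type (WT). Both groups had received Angiotensin II at 1 mg/kg/day for 28 days from subcutaneous minipumps, so neither group shows the untreated heart. Which promoter drove the deletion, which exons it removed and the sex of the mice are not stated in the labels. The design text describes the 3 samples of each group as biological replicates.

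Bone morphogenetic proteins (BMPs) are secreted ligands of the TGF-beta superfamily. They bind pairs of type I and type II receptor kinases, which phosphorylate SMAD1, SMAD5 and SMAD9, and these enter the nucleus with SMAD4. In endothelial cells the type I receptor ALK1 (gene Acvrl1), the type II receptor BMPR2 and the co-receptor endoglin (gene Eng) carry this signal, and mutations in these genes cause inherited vascular disease in humans. The ID genes are classical SMAD targets. Their proteins have a helix-loop-helix domain but no basic region, so they bind E proteins and keep them from DNA. SMAD6 is induced by the same signal and damps it.

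Each library held 22124844 to 30418909 counted reads, and 14370 genes were tested. Levels are given as CPM, read counts divided by the TMM-scaled library size in units of 1e6. Log2 fold changes divide TET2KO by WT and carry the SE of edgeR's quasi-likelihood test, with Benjamini-Hochberg adjustment and a threshold of 0.05. Fold changes were larger for longer transcripts over all tested genes (Spearman's rho 0.61 across 14341 genes, a description). A second value, called trend-removed, comes from a fit in which a smooth function of transcript length and GC content was subtracted. Tet2 stood higher, at 14.6, 8.01 and 10.4 CPM, in the libraries labelled TET2KO, against 4.27, 4.33 and 3.08 CPM in those labelled WT (log2 fold change 1.49 ± 0.29, edgeR adjusted p = 0.0065). The trend-removed value of Tet2 was 0.27 ± 0.17 and did not pass the test (edgeR adjusted p = 0.21). No fall in Tet2 was thus seen in the knockout libraries. The labels name a deletion in endothelial cells only, its exons are not stated, and bulk tissue was sequenced. Reads of the whole gene therefore cannot check the labels. Every direction given here is that of the labels. Replicate 2 of the TET2KO libraries stood apart: its log2 CPM correlated with TET2KO replicates 1 and 3 at r = 0.928 and 0.959, and with WT replicates 1, 2 and 3 at r = 0.958, 0.968 and 0.955. Of 22 endothelial markers, 13 were higher and 5 lower, against 33.4% and 29.4% of all tested genes. Trend-removed, 9 of the 22 were higher and 3 lower, against 21.9% and 24.3% of all tested genes, with 10 not past the test. Their median log2 fold change was 1.33 as counted and 0.31 trend-removed, and their summed level was 898 to 1535 CPM in TET2KO libraries, against 772 to 840 CPM in WT libraries. None of the 22 was at 0 in any library, and the part of this difference in the results on the members was not tested. In bulk tissue, a change in the number of cells of a type and a change in RNA per cell cannot be told apart.

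A ligand gene (Bmp6), 2 receptor genes (Bmpr2 and Eng) and the inhibitor gene Smad6 rose in the libraries labelled TET2KO, by 2.72-fold to 5.43-fold. The 3 ID genes had negative values that did not pass the test, and Bmp2, Bmp4 and Acvrl1 did not pass it either. In all, 4 of the 10 members rose. Over all tested genes 33.4% were called higher by the same test, so the members' count is near the background. By the same test 0 members fell, against 29.4% of all genes called lower. At an unadjusted p under 0.05, 1 member was lower, against 31.7% of all genes. DESeq2 called 4 members higher and 2 lower, against 33.7% and 31.2% of all genes. In 7 members the groups did not overlap, against 73.5% of all genes. TET2KO stood above WT in 5 of these, against 38% of all genes, and below it in 2, against 35.5%. The median log2 fold change was 0.27 over the members and 0.046 over all tested genes. Trend-removed, 3 members were higher, against 21.9% of all genes, and 1 was lower, against 24.3%. When that trend used lengths implied by the authors' TPM, 6 members were higher and 1 lower, against 24.2% and 26.3%. Scaling by total library size alone gave 6 higher and 0 lower, against 45.5% and 15.8%. Without TET2KO replicate 2, 5 members were higher, against 39.8% of all genes, and 3 were lower, against 35.3%. Replicate 2 was the lowest TET2KO library for all 4 members that rose, as it was for 96% of all genes called higher. It was the highest TET2KO library for the 3 ID genes, as for 83.2% of all genes with a negative fold change.

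**Figure D1:**
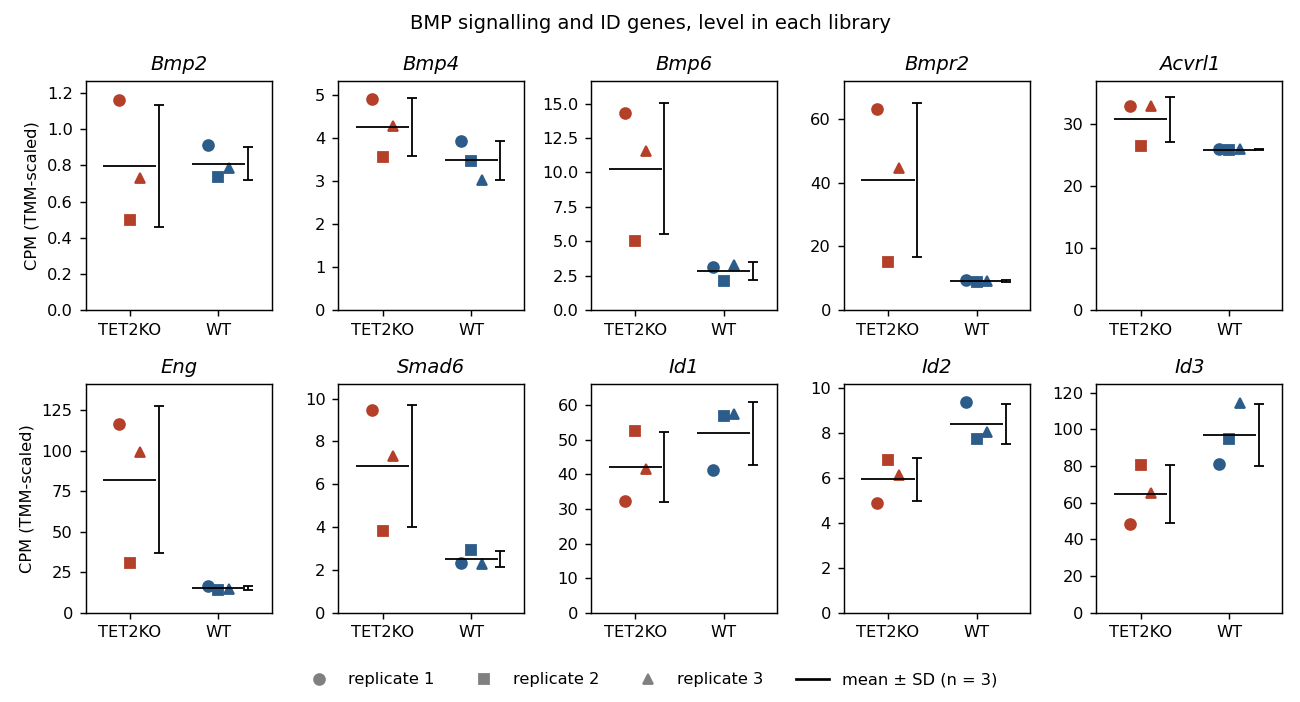
Level of each member in CPM (TMM-scaled, linear axis from 0) in the 3 TET2KO and 3 WT libraries, with marker shape for the replicate number and a bar for the mean ± SD. Bmp6, Bmpr2, Eng and Smad6 are higher in each TET2KO library than in each WT library and lowest in TET2KO replicate 2, while Id1, Id2 and Id3 are highest there among the TET2KO libraries.

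Among the ligands, Bmp6 rose and Bmp2 and Bmp4 did not pass the test. BMP6 is made by endothelial cells and is best known for inducing hepcidin in the liver. Bmp6 (ENSMUSG00000039004, GRCm38 chromosome 13, 38345107 to 38500302, plus strand, protein coding) held 14.3, 5.0 and 11.5 CPM in TET2KO replicates 1, 2 and 3, against 3.12, 2.08 and 3.3 CPM in WT replicates 1, 2 and 3. The groups did not overlap, and TET2KO replicate 2 lay closest to WT. Bmp6 averaged 10.3 ± 4.77 CPM in TET2KO and 2.84 ± 0.657 CPM in WT (SD, n = 3 each), a log2 fold change of 1.86 ± 0.41 (edgeR adjusted p = 0.0075). Trend-removed, its value was 0.34 ± 0.23 and did not pass the test (edgeR adjusted p = 0.25). That value turned on the length used. GENCODE's longest Bmp6 transcript is 3593 nt, while the length implied by the authors' TPM was 1810 nt, and with that length in the trend Bmp6 was past the test at 1.61 ± 0.35 (edgeR adjusted p = 0.0079).

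BMP4 patterns mesoderm and heart in the embryo and is made by endothelial and stromal cells in the adult. Bmp4 (ENSMUSG00000021835, GRCm38 chromosome 14, 46383520 to 46390669, minus strand) held 4.91, 3.57 and 4.29 CPM in TET2KO libraries, against 3.94, 3.47 and 3.02 CPM in WT libraries. The groups overlapped, and the log2 fold change of 0.29 ± 0.24 did not pass the test (edgeR adjusted p = 0.31). Its trend-removed value was 0.53 ± 0.22 (edgeR adjusted p = 0.082), and 0.66 and past the test without TET2KO replicate 2. When libraries were scaled by total size alone, which moved the median of all genes to 0.47, Bmp4 passed at 0.72.

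BMP2 drives cushion formation in the developing heart valves. Bmp2 (ENSMUSG00000027358, GRCm38 chromosome 2, 133552159 to 133562885, plus strand) was the member with the fewest reads, at 43, 15 and 23 in TET2KO libraries and 19, 18 and 14 in WT libraries. Its level was 1.16, 0.50 and 0.730 CPM in TET2KO, against 0.912, 0.736 and 0.784 CPM in WT. The TET2KO libraries lay on both sides of the WT libraries, and the log2 fold change was -0.011 ± 0.39 (edgeR adjusted p = 0.98). Its trend-removed value was -0.69 ± 0.33 and did not pass the test (edgeR adjusted p = 0.11).

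The 3 receptor genes differed from each other. Eng and Bmpr2 rose, while Acvrl1 did not pass the test. Endoglin, the product of Eng, is a co-receptor on endothelial cells that presents BMP9 and BMP10 to ALK1. Eng (ENSMUSG00000026814, GRCm38 chromosome 2, 32646595 to 32682669, plus strand, protein coding) held 116.5, 30.7 and 99.2 CPM in TET2KO replicates 1, 2 and 3, against 16.7, 13.98 and 14.7 CPM in WT replicates 1, 2 and 3. The lowest TET2KO library stood above the highest WT library, and the TET2KO libraries spread 3.80-fold from lowest to highest, against 1.19-fold in WT. Eng averaged 82.1 ± 45.4 CPM in TET2KO and 15.1 ± 1.38 CPM in WT, a 5.43-fold difference and the highest among the members as counted (log2 fold change 2.44 ± 0.45, edgeR adjusted p = 0.0065). It was past the test in 23 of 23 alternative fits, between 0.87 and 2.89, and stood at 1.01 ± 0.24 trend-removed (edgeR adjusted p = 0.0096).

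BMPR2 is the type II receptor whose loss causes heritable pulmonary arterial hypertension. Bmpr2 (ENSMUSG00000067336, GRCm38 chromosome 1, 59763400 to 59879014, plus strand, protein coding) held 63.1, 15.1 and 44.5 CPM in TET2KO replicates 1, 2 and 3, against 9.36, 8.91 and 9.24 CPM in WT replicates 1, 2 and 3. The groups did not overlap, and WT libraries lay within 1.05-fold of each other. Bmpr2 averaged 40.9 ± 24.2 CPM in TET2KO and 9.17 ± 0.233 CPM in WT (log2 fold change 2.16 ± 0.46, edgeR adjusted p = 0.0071). Bmpr2 has the longest transcript of the 10 members, 12899 nt. Trend-removed, its value was 1.25 ± 0.32 (edgeR adjusted p = 0.013). Leaving out WT replicate 1 (1.24) or WT replicate 2 (1.17) ended that call.

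ALK1, the product of Acvrl1, is the type I receptor for BMP9 and BMP10 in endothelium. Acvrl1 (ENSMUSG00000000530, GRCm38 chromosome 15, 101128522 to 101145336, plus strand, protein coding) held 32.9, 26.5 and 32.9 CPM in TET2KO libraries, against 26.0, 25.8 and 25.9 CPM in WT libraries. The groups did not overlap, but the lowest TET2KO library was only just above WT. Acvrl1 averaged 30.8 ± 3.67 CPM in TET2KO and 25.9 ± 0.0927 CPM in WT, and the log2 fold change of 0.25 ± 0.15 did not pass the test (edgeR adjusted p = 0.18). The direction turned when the trend was subtracted. Trend-removed, Acvrl1 was lower and past the test (-1.02 ± 0.18, edgeR adjusted p = 0.0042). Under each library scaling it was positive, and with total size alone it passed the test (0.68). Without TET2KO replicate 2 it passed as counted at 0.36.

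Smad6 rose as counted. SMAD6 binds activated type I receptors and SMAD1 and thereby limits BMP signalling, and loss of the gene in mice gives valve and outflow tract defects. Smad6 (ENSMUSG00000036867, GRCm38 chromosome 9, 63953076 to 64022059, minus strand, protein coding) held 9.44, 3.80 and 7.34 CPM in TET2KO replicates 1, 2 and 3, against 2.30, 2.94 and 2.30 CPM in WT replicates 1, 2 and 3. The groups did not overlap, and TET2KO replicate 2 lay nearest to WT. Smad6 averaged 6.86 ± 2.85 CPM in TET2KO and 2.51 ± 0.371 CPM in WT (log2 fold change 1.44 ± 0.36, edgeR adjusted p = 0.011). Its trend-removed value was -0.0071 ± 0.18 (edgeR adjusted p = 0.98). With the length implied by the authors' TPM the value was 0.41 ± 0.22 (edgeR adjusted p = 0.14).

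The ID genes are targets of the pathway, as Smad6 is. As counted, none of the 3 passed the test. Their values were negative on the TMM scale, while on log2(TPM + 1) and trend-removed all 3 were positive. On log2(TPM + 1) the median of all tested genes was 0.41, above all 3 values. With the length implied by the authors' TPM in the trend, Id3 was negative. ID1 is the family member most often read as a measure of BMP signalling in endothelial cells. Id1 (ENSMUSG00000042745, GRCm38 chromosome 2, 152736251 to 152737410, plus strand) held 32.2, 52.4 and 41.4 CPM in TET2KO replicates 1, 2 and 3, against 41.2, 56.7 and 57.5 CPM in WT replicates 1, 2 and 3. The groups overlapped. Id1 averaged 42.0 ± 10.1 CPM in TET2KO and 51.8 ± 9.18 CPM in WT (log2 fold change -0.30 ± 0.23, edgeR adjusted p = 0.27). Trend-removed, Id1 was higher and past the test (0.48 ± 0.15, edgeR adjusted p = 0.028). That call was lost without TET2KO replicate 3 (0.45), WT replicate 1 (0.31) or WT replicate 3 (0.50), and without TET2KO replicate 2 the value as counted passed in the other direction (-0.47).

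ID3 acts with ID1 in developing vessels and endocardium. Id3 (ENSMUSG00000007872, GRCm38 chromosome 4, 136143497 to 136145755, plus strand) held 48.5, 80.6 and 65.4 CPM in TET2KO libraries, against 80.9, 95.1 and 114.6 CPM in WT libraries. Every TET2KO library was below every WT library, by a small margin between TET2KO replicate 2 and WT replicate 1. The log2 fold change of -0.58 ± 0.23 did not pass the test (edgeR adjusted p = 0.057), and its trend-removed value was 0.048 ± 0.14 (edgeR adjusted p = 0.79). With the length implied by the authors' TPM in the trend, the value was -0.21 ± 0.17 (edgeR adjusted p = 0.32). DESeq2 called Id3 lower (-0.62, DESeq2 adjusted p = 0.037), and edgeR did so without TET2KO replicate 2 (-0.74).

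ID2 is broadly expressed and also takes part in lymphocyte development. Id2 (ENSMUSG00000020644, GRCm38 chromosome 12, 25093799 to 25097140, minus strand) held 4.91, 6.81 and 6.13 CPM in TET2KO libraries, against 9.41, 7.73 and 8.06 CPM in WT libraries. The groups did not overlap. The log2 fold change was -0.50 ± 0.22 (edgeR adjusted p = 0.074), and 0.26 ± 0.16 trend-removed (edgeR adjusted p = 0.21). DESeq2 called Id2 lower (-0.54, DESeq2 adjusted p = 0.044), and edgeR did so without TET2KO replicate 2 (-0.59). With the length implied by the authors' TPM in the trend, 954 nt against GENCODE's 1969 nt, Id2 was higher and past the test (0.59 ± 0.18, edgeR adjusted p = 0.024).

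**Figure D2:**
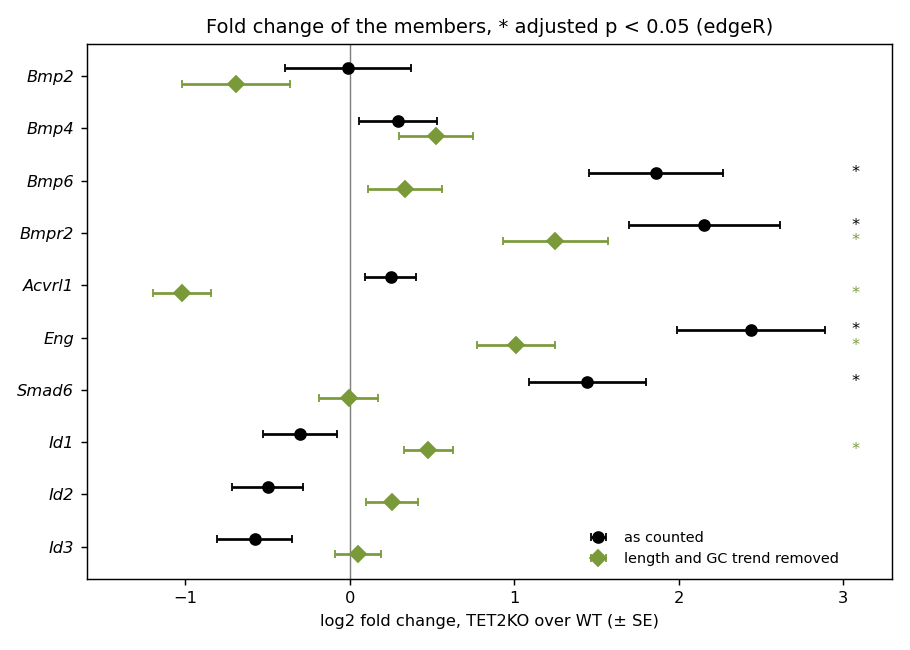
Log2 fold change of each member, TET2KO over WT, as counted (circles) and trend-removed (diamonds), with bars for the SE and asterisks for adjusted p under 0.05. Eng and Bmpr2 carry both asterisks, Bmp6 and Smad6 only the one as counted, and Acvrl1 (lower) and Id1 (higher) only the one after trend removal.

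Promoter sequences are shown for Eng, which had the highest fold change as counted (trend-removed, Bmpr2 was higher), and for the 3 SMAD target genes that the reference table holds, since Smad6 rose as counted and the ID genes did not. RefSeq promoters (GRCm38.p6, 250 bases before to 50 after the RefSeq start site) matched 7 of the 10 members, and Bmp2, Acvrl1 and Id1 were not matched. For Eng and Smad6 this site is the start of the gene as given above. For Id2 (25096092) and Id3 (136143822) it lies inside the gene bounds given above, and so do their whole windows. The nearest GENCODE transcript start is 0 nt away for Id2 and 42 nt away for Id3. The windows are chr2:32646345-32646644 for Eng (plus strand), chr9:64022010-64022309 for Smad6 (minus strand), chr12:25096043-25096342 for Id2 (minus strand) and chr4:136143572-136143871 for Id3 (plus strand), printed 5′ to 3′ on the strand of the gene. Capitals mark matches on either strand to letters that SMAD proteins are known to bind. One such motif is GGCGCC, which reads the same on both strands. A second, of the same GC-rich kind, is GGAGCC and its reverse complement. The last is GTCTG and its reverse complement. In these 4 windows no capitalised matches overlapped.
Eng: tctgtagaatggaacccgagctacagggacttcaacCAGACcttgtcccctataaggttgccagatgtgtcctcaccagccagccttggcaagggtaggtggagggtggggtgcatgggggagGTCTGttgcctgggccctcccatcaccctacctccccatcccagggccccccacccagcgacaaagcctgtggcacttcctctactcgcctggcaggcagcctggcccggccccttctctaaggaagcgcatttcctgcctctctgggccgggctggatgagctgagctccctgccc
Smad6: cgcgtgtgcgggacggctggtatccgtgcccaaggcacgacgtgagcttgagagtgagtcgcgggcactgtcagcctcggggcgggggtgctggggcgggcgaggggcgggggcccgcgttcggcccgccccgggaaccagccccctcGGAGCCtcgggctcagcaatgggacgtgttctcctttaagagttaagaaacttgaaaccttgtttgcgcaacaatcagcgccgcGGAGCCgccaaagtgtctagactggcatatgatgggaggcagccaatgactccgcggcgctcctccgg
Id2: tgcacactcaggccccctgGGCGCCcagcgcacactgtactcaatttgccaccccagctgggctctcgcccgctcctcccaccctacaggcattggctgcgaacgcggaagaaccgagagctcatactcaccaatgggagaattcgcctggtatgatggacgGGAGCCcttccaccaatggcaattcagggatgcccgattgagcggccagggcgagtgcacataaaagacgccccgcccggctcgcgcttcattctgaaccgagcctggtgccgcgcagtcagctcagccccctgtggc
Id3: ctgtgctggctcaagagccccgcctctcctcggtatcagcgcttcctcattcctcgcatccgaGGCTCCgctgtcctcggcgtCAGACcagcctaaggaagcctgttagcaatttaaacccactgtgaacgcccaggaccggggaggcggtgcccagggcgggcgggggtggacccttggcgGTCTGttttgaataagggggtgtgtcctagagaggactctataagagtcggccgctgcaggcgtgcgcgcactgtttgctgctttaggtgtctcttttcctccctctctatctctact

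The Eng window held 2 matches to GTCTG, starting at -214 and -127 from the RefSeq start site, and none to the GC-rich pair. The Smad6 window held 2 matches to GGAGCC, at -102 and -18. Id2 held 1 match to GGCGCC at -231 and 1 to GGAGCC at -88, and Id3 held 1 match to GGAGCC at -187 and 2 to GTCTG at -167 and -68. Of the 32851 promoters of the same length in the table, 11.9% held GGCGCC, 30.8% held GGAGCC and 49.6% held GTCTG on either strand. The E-box letters CANNTG, which E proteins bind, occurred in 72.3% of them, with 1 match each in the Eng, Smad6 and Id2 windows and 0 in Id3. CpG sites, the substrate of TET enzymes when methylated, numbered 6 in the Eng window, 31 in Smad6, 21 in Id2 and 19 in Id3, against a median of 7 (quartiles 3 and 20) over all promoters. A match is a description of letters and not a bound site, and methylation was not measured in these samples.

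Among the members, as among all genes, longer transcripts had the higher values as counted. Spearman's rho between fold change and longest transcript was 0.66 over the 10 members, a description over genes of the same libraries. The 3 ID genes have the shortest transcripts, from 1160 to 1969 nt, and the fitted trend at Id1, Id2 and Id3 was -0.81, -0.77 and -0.65 on the log2 scale of TET2KO over WT. At Bmp6, Smad6 and Eng the trend was 1.41, 1.36 and 1.28. Values also differed between members of like length, and the cause was not tested. Eng (3422 nt, 57.4% GC) and Acvrl1 (3640 nt, 56.6% GC) had the same fitted trend of 1.28 and log2 fold changes of 2.44 and 0.25. Bmp2, at 3555 nt but 52.5% GC and a fitted trend of 0.65, stood at -0.011 ± 0.39 on 14 to 43 reads per library.

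**Figure D3:**
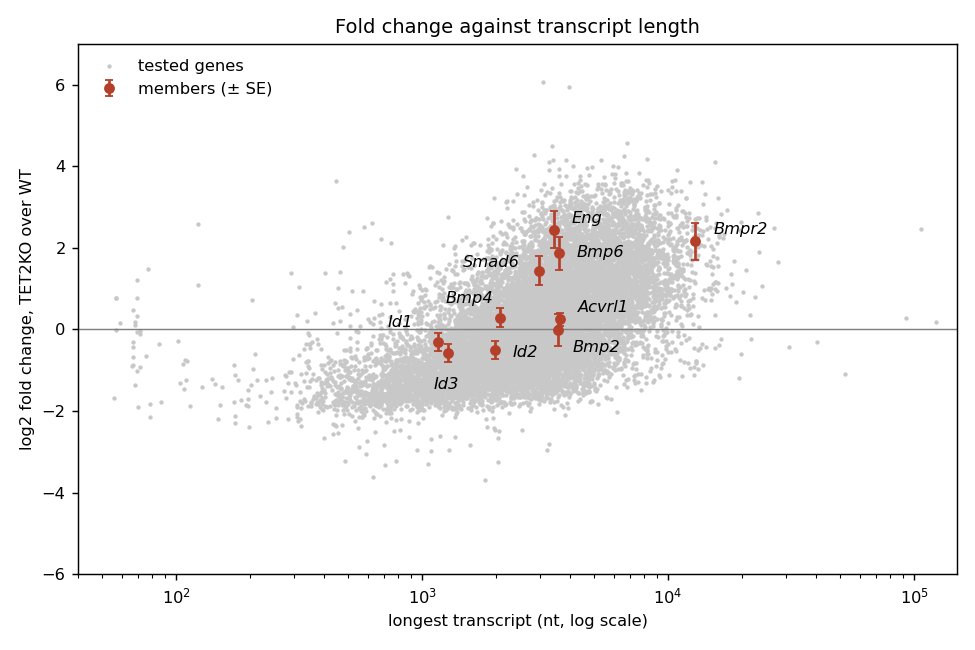
Log2 fold change of TET2KO over WT against the longest transcript of each gene (nt, log axis), with tested genes in grey and the members in red with their SE. Longer transcripts lie higher. Eng, Bmp6, Acvrl1 and Bmp2 have transcripts of 3422 to 3640 nt and spread from -0.011 to 2.44.

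Ratios of reads within a library, which need no scaling between libraries, were compared for 6 pairs of members. With 3 libraries against 3 the smallest two-sided p of the exact permutation test is 0.10, so no pair could pass 0.05. The ratio of Eng to Acvrl1, the co-receptor to its type I receptor, was 3.74, 1.22 and 3.18 in TPM in TET2KO replicates 1, 2 and 3, against 0.676, 0.571 and 0.598 in WT replicates 1, 2 and 3. Eng stood above Acvrl1 per length in each TET2KO library and below it in each WT library. The mean log2 ratio of reads differed by 1.99 (1.21 ± 0.87 in TET2KO and -0.78 ± 0.13 in WT, exact permutation p = 0.10, 0.12 adjusted over the 6 pairs). These genes are alike in length and GC content, and the difference was 1.99 trend-removed too.

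The ratio of Acvrl1 to Bmpr2, the type I to the type II receptor, was 2.20, 7.42 and 3.12 in TPM in TET2KO libraries, against 11.7, 12.2 and 11.8 in WT libraries. It was lower in each TET2KO library, by 1.69 on the log2 scale of reads (exact permutation p = 0.10, 0.12 adjusted). Bmpr2 is much longer than Acvrl1, and the fitted trend differed between them (1.28 at Acvrl1 and 0.80 at Bmpr2). The trend-removed difference, which was added for the ratios after the data were seen, was -2.16. Bmp6 over Bmp4 differed by 1.47 on the same scale and Smad6 over Id1 by 1.67, each with groups that did not overlap (exact permutation p = 0.10 and 0.12 adjusted for both). Both differences turned negative trend-removed, to -0.20 for Bmp6 over Bmp4 with groups that overlapped, and to -0.52 for Smad6 over Id1. The fitted trend, on GENCODE lengths, was 1.41 at Bmp6 and -0.23 at Bmp4, and 1.36 at Smad6 and -0.81 at Id1. With the lengths implied by TPM, the trend-removed fold change of Bmp6 (1.61) stood above that of Bmp4 (0.66). Smad6 (0.41) then stood below Id1 (0.54). The ratios themselves were not worked out with those lengths. The ratio of Id1 to Id3 differed by 0.28, with log2 ratios of -0.59, -0.62 and -0.66 in TET2KO libraries, against -0.97, -0.74 and -0.995 in WT libraries (exact permutation p = 0.10, 0.12 adjusted). Their longest transcripts are 1160 and 1278 nt, but the lengths implied by TPM are 871 and 1345 nt, and the trend-removed difference was 0.44. Id1 over Id2 differed by 0.19, and its groups overlapped (exact permutation p = 0.80, and 0.80 adjusted).

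**Figure D4:**
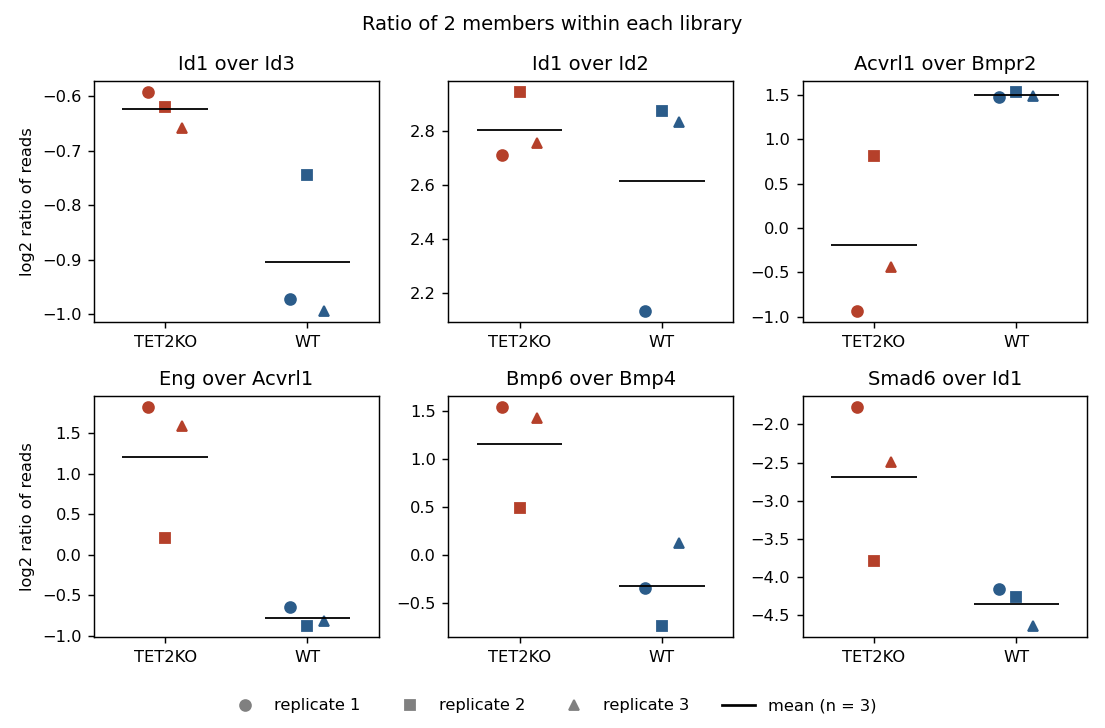
Log2 ratio of reads of 2 members within each library, for the 3 TET2KO and 3 WT libraries, with marker shape for the replicate number and a bar for the group mean (axes do not start at 0). The groups do not overlap in 5 of the 6 ratios, and Id1 over Id2 is the exception.

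Each member was also set against the endothelial markers of the same library. The mean log2 CPM of the 22 markers was 5.66, 4.95 and 5.53 in TET2KO libraries, against 4.47, 4.52 and 4.27 in WT libraries, a difference of 0.96. The median log2 fold change of all tested genes was 0.046, so a gene near that median also falls relative to the markers. How many of all tested genes do so was not counted. Against the marker mean, Eng differed by 1.27 and Bmpr2 by 0.96, with each TET2KO library above each WT library. Bmp6 and Smad6 differed by 0.77 and 0.38 with groups that overlapped (exact permutation p = 0.20 and 0.20 adjusted over the 10 members for both). The other 6 members were lower relative to the markers in each TET2KO library than in each WT library, with differences of -1.55 for Id3, -1.46 for Id2, -1.27 for Id1, -1.05 for Bmp2, -0.72 for Acvrl1 and -0.68 for Bmp4. For these 6, Eng and Bmpr2 the exact permutation p was 0.10, the smallest possible, and 0.125 adjusted. Trend-removed, the marker mean differed by 0.45, against a median of -0.031 over all tested genes. Eng then differed by 0.49 and Bmpr2 by 0.66, with groups that overlapped. Id1 differed by 0.040, Bmp4 by 0.056, Bmp6 by -0.14, Id2 by -0.19 and Id3 by -0.40, again with overlap. Bmp2 (-1.19), Acvrl1 (-1.50) and Smad6 (-0.48) were lower relative to the markers in each TET2KO library than in each WT library. No adjusted exact permutation p of these trend-removed values was under 0.33, and this comparison was chosen after the data were seen.

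Levels per length, as the authors' TPM (transcripts per length, scaled to 1e6 in each library), were highest for Id1 and Id3 in both groups. In TET2KO libraries Id1 averaged 87.5 ± 13.0 TPM and Id3 87.4 ± 13.6 TPM, followed by Eng at 51.3 ± 31.2 TPM. The ranges of these 3 neighbours overlapped. Acvrl1 at 17.8 ± 3.55 TPM stood clear of Id2 at 11.4 ± 0.801 TPM. Bmp6 (10.7 ± 5.75), Bmpr2 (5.78 ± 3.81), Smad6 (5.38 ± 2.66) and Bmp4 (4.74 ± 1.19 TPM) overlapped each with the next in that order, and Bmp2 was lowest at 0.565 ± 0.290 TPM. In WT libraries Id3 averaged 84.9 ± 12.8 TPM and Id1 70.5 ± 14.5 TPM, with ranges that overlapped. Id2 (10.4 ± 1.13 TPM) and Acvrl1 (9.57 ± 0.775 TPM) overlapped, and Eng, at rank 3 in TET2KO, was at rank 5 in WT with 5.87 ± 0.547 TPM. Below it in WT came Bmp4 at 2.47 ± 0.426, Bmp6 at 1.83 ± 0.299, Smad6 at 1.25 ± 0.290, Bmpr2 at 0.803 ± 0.0518 and Bmp2 at 0.358 ± 0.0386 TPM. Of these, Bmp4 and Bmp6 overlapped, as did Bmp6 and Smad6. On this scale the means of Id1, Id2 and Id3 were higher in TET2KO than in WT, the opposite of the CPM, and none of the 3 passed the test on log2(TPM + 1) values (limma log2 differences 0.32, 0.12 and 0.04). All 3 lay below the median of all tested genes, which was 0.41 on that scale and 0.046 as counted.

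The authors' deposited table gives like values for the members. It lists log2 fold changes of 2.38 for Eng, 2.09 for Bmpr2, 1.80 for Bmp6 and 1.39 for Smad6, with adjusted p-values of 7.84e-07, 1.68e-05, 6.74e-05 and 0.000706. The authors' deposited table also lists Id2 at -0.55 (adjusted p = 0.0411) and Id3 at -0.63 (adjusted p = 0.0341), both of which did not pass the quasi-likelihood test.

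The rest of the BMP pathway was compared by a list of 59 other genes in 6 classes, of which 41 were tested. Of these, 22 were higher and 2 lower in the libraries labelled TET2KO, and 17 did not pass, against 33.4% of all tested genes higher and 29.4% lower. Their median log2 fold change was 0.78, against 0.046 over all genes. Trend-removed, 10 of the 41 were higher and 3 lower, against 21.9% and 24.3% of all genes, with a median of 0.15 (-0.031 over all genes). Without TET2KO replicate 2 the counts were 26 higher and 3 lower, against 39.8% and 35.3% of all genes. Trend-removed without that library they were 18 higher and 10 lower (27.8% and 30.5% of all genes).

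Of 3 tested ligand genes 2 rose, Gdf6 (log2 fold change 1.81 ± 0.44) and Bmp7 (1.01 ± 0.35), and Bmp5 stood at -0.29 ± 0.38 (trend-removed 0.15 ± 0.38). Gdf6 passed also trend-removed (1.14 ± 0.36), while Bmp7 stood at -0.14 ± 0.30. Gdf2, which encodes BMP9, and Bmp10 did not pass the filter on low counts. Of 6 tested receptors and co-receptors 4 rose and none fell. Rgma and Rgmb, co-receptors of the repulsive guidance molecule family that bind BMPs, rose by log2 fold changes of 3.92 ± 0.72 and 1.67 ± 0.35, and both passed trend-removed (1.97 ± 0.42 and 0.70 ± 0.20). Rgma stood at 21.6, 2.77 and 12.3 CPM in TET2KO libraries, against 0.912, 0.818 and 0.672 CPM in WT libraries. Tgfbr3, the co-receptor betaglycan, rose by 1.53 ± 0.38, with a trend-removed value of 0.35 ± 0.20 that did not pass. The type I receptor gene Bmpr1a, at 0.15 ± 0.16 and -0.13 ± 0.13 trend-removed, did not pass.

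Of 7 SMAD and SMURF genes 5 rose and none fell. Smurf1, a ubiquitin ligase that marks SMAD1 and SMAD5 for degradation, rose by 3.00 ± 0.48, and its trend-removed value of 1.12 ± 0.18 passed the test. Smad1, a receptor-activated SMAD of this pathway, rose by 1.09 ± 0.25 and Smad7, an inhibitory SMAD, by 1.11 ± 0.25. Trend-removed, Smad1 (0.44 ± 0.19) and Smad7 (-0.46 ± 0.24) did not pass. Among 9 tested antagonists and modulators 4 rose and 2 fell. Bambi, a pseudoreceptor that blocks signalling, fell to 17.3, 30.3 and 27.9 CPM in TET2KO libraries, against 69.2, 68.8 and 75.1 CPM in WT libraries (-1.5 ± 0.23, edgeR adjusted p = 0.0065). It was lower also trend-removed (-1.82 ± 0.23). The other gene that fell was Fst, which encodes the activin antagonist follistatin (-1.10 ± 0.37, and -0.90 ± 0.37 trend-removed, not past the test), named after its value was seen. Twsg1, a chordin-binding modulator, rose by 1.30 ± 0.21 (trend-removed 1.14 ± 0.17, past the test), and Bmp1, a protease that cleaves chordin, rose by 1.03 ± 0.27 as counted and was lower trend-removed (-0.49 ± 0.15, past the test).

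Of 10 other tested target genes 3 rose and none fell. Efnb2, the arterial ephrin ligand, rose by 1.72 ± 0.34 (trend-removed 0.74 ± 0.20, past the test). Unc5b, a netrin receptor of endothelium, rose by 2.73 ± 0.64, and Atoh8, a helix-loop-helix factor, by 0.85 ± 0.25, and neither passed trend-removed (0.34 ± 0.26 and -0.10 ± 0.25). Trend-removed, 3 targets were higher and 0 lower, against 21.9% and 24.3% of all genes. Besides Efnb2 these were Tmem100 (0.97 ± 0.23) and Hes1 (0.73 ± 0.14), which stood at 0.043 ± 0.31 and -0.020 ± 0.18 as counted. Of 6 tested helix-loop-helix partner genes 4 rose. The E protein genes Tcf12, Tcf4 and Tcf3, whose products the ID proteins bind, rose by 1.501 ± 0.28, 1.32 ± 0.29 and 1.38 ± 0.35. Tcf12 and Tcf4 passed trend-removed (0.79 ± 0.17 and 0.68 ± 0.17), and Tcf3 did not (-0.072 ± 0.20). Tal1, another partner gene, did not pass as counted (-0.24 ± 0.23) and was lower trend-removed (-1.18 ± 0.26, past the test).

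**Figure D5:**
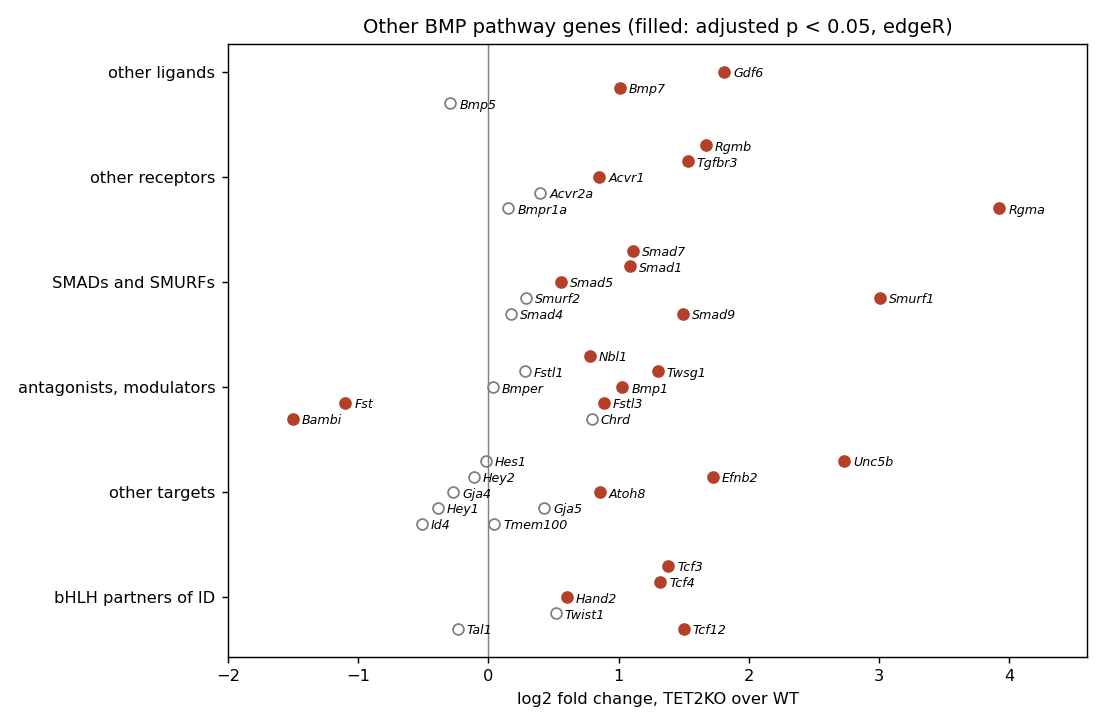
Log2 fold change of TET2KO over WT for the 41 tested genes of the 6 other pathway classes, filled where adjusted p is under 0.05. Filled points lie to the right of 0 except Bambi and Fst, and the target class holds 7 open points around 0.

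Markers of other cell types moved between the groups as well. Summed cardiomyocyte markers stood at 52520 to 57378 CPM in TET2KO libraries, against 75934 to 93616 CPM in WT libraries. Of the 10, 5 were higher and 4 lower (6 and 2 trend-removed, against 21.9% and 24.3% of all tested genes). As counted, 33.4% of all tested genes were higher and 29.4% lower. Among the 4 lower cardiomyocyte markers, Myl2 (889 nt) averaged 10309 CPM in TET2KO and 32056 CPM in WT. Myl3 (937 nt) averaged 7605 CPM in TET2KO and 19622 CPM in WT. The fitted trend was -1.17 at Myl2 and -0.99 at Myl3, and they were the 2 lower trend-removed. The 5 red cell genes were all lower, as counted and trend-removed, at 165 to 741 CPM in TET2KO, against 1554 to 7037 CPM in WT. Trend-removed without TET2KO replicate 2, 0 of the 5 passed the test, with a median log2 fold change of -2.91. Of 8 fibroblast markers 4 were higher and 4 lower, of 9 mural cell markers 4 were higher and 3 lower, and of 8 macrophage markers 2 were higher and 2 lower. Trend-removed, these counts were 1 higher and 0 lower for fibroblast markers, with 7 of 8 not past the test, 3 and 4 for mural cell markers, and 1 and 2 for macrophage markers. Their summed levels overlapped for fibroblast and mural markers, at 1691 to 1875 and 3456 to 3727 CPM in TET2KO, against 1768 to 1830 and 3472 to 3750 CPM in WT. Macrophage markers summed to 141 to 153 CPM in TET2KO, against 158 to 173 CPM in WT. By the naming rule, the leading markers were Cdh5 (3.40 ± 0.53) and Sox18 (2.12 ± 0.33) of endothelium, Myh6 (3.45 ± 0.64) and Actn2 (1.38 ± 0.28) of cardiomyocytes, and Col1a1 (3.80 ± 0.77) and Tcf21 (-0.92 ± 0.22) of fibroblasts. Myh11 (3.54 ± 0.65) and Abcc9 (1.74 ± 0.33) led for mural cells, Csf1r (1.96 ± 0.42) and Fcgr1 (-1.12 ± 0.27) for macrophages, and Hbb-bt (-3.33 ± 0.73) and Hba-a2 (-2.89 ± 0.64) for red cells. Of these 12, Tcf21 (-0.35 ± 0.16) and Csf1r (0.46 ± 0.22) did not pass trend-removed, while the other 10 did, in the same direction. Pecam1, which encodes CD31, rose by 1.41 ± 0.23 (trend-removed 1.03 ± 0.16, past the test). The part of these cell types in the members' values was not tested.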

How the data were processed

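Poly(A)-selected RNA-seq libraries of 6 hearts, 3 labelled TET2KO and 3 labelled WT, were analysed, with columns assigned through the library name in each sample's description. The submitters' processing notes list the aligner STAR 2.5.2b, the trimmer Trimmomatic 0.36, the package Subread 1.5.2 with its counter featureCounts, and DESeq2, and name the builds GRCm38 and mm10. Neither the annotation release nor the strand setting is given in the sources used. The deposited read counts per gene are raw. The authors' TPM sum to the same total per library. The authors' comparison table holds log2 fold changes, p-values and, per library, a signal equal to counts divided by 1 size factor; that signal was not used. No per-sample column was unmatched (0).

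Counts were tested with edgeR 4.0.16 in R 4.3.3 (quasi-likelihood F-test, robust, TMM, filterByExpr, group as the only term, Benjamini-Hochberg over all genes tested). The SE was |log2 fold change| divided by the root of the F statistic. Lengths, GC content and positions come from GENCODE M21 (GRCm38), longest protein-coding transcript where there is one, for 48970 of the 49315 genes. Per library, a surface from mgcv 1.9.3 (basis size 6 for each axis) was fitted to deviations of log2 CPM (prior count 2) and entered edgeR as offsets. It takes out real differences that follow length or GC too. A second length was worked out from the deposited counts over TPM and set to nucleotides with 1 common factor. Alternatives used DESeq2 1.42.0, limma 3.58.1 (voom, and log2 of TPM plus 1 or 0.1), other scaling, no filter, the replicate number as a block, and each library left out. Tested on simulated counts of this comparison (14209 genes), the test recovered 30% of 100 genes altered by log2 1 and 90% of 100 altered by log2 2, and called 8 unaltered genes. Trend-removed (14188 genes), it recovered 78% and 99% and called 9. Only these genes, all above 1 CPM, were altered, and counts were drawn independently, while 9037 genes passed in the data. The recovery rates therefore hold for the simulated setting only. The trend-removed simulation took its trend from the fitted surface, and the other simulation held no trend, so these rates do not rank the fits. Library totals give a precision that covers counting error only beside the spread between samples.

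Members and lists were chosen with earlier results of these data known. The text names every member, Tet2, Pecam1 and Cdh5, up to 3 genes with the smallest p past the test from each other pathway class, and 2 from each marker list. Bmp5, Bmpr1a, Fst, Gdf2, Bmp10, Tmem100, Hes1, Tal1, Myl2 and Myl3 were named after their values were seen. Trend-removed ratios and marker-relative values were added after the data were seen. Protein sequences were not used here.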

Additional observations from a re-analysis of the deposited data

How the results depend on the processing

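Over 23 alternative fits Eng was past the test and higher in all 23 and Bmpr2 in 21, while Bmp6 passed in 15 and Smad6 in 14. Removing the length and GC trend gave 0.34 for Bmp6, -0.0071 for Smad6, -1.02 for Acvrl1 and 0.48 for Id1, with 1 member lower, 10 other pathway genes higher and 3 endothelial markers lower. Adding the replicate block to it gave 0.33, -0.0060, -1.04 and 0.49, with 5741 genes past the test (47.8% of them higher), 1 member lower, 11 pathway genes higher and 3 endothelial markers lower. With the lengths implied by TPM the values were 0.66 for Bmp4, 0.41 for Smad6, -0.73 for Acvrl1, 0.54 for Id1 and 0.59 for Id2, with 1 member lower and 14 pathway genes higher. Among genes outside the set the 3 trend fits, in the same order, gave -0.46, -0.47 and -0.0021 for Smad7 and -0.072, -0.051 and -0.0055 for Tcf3. The first 2 of them gave -0.14 and -0.13 for Bmp7, -0.49 and -0.48 for Bmp1, and -0.10 and -0.12 for Atoh8, and the last gave 0.065 for Tcf21. Scaling by total size, log2(TPM + 1) and log2(TPM + 0.1) gave 0.72, 0.71 and 0.90 for Bmp4 and 0.68, 0.81 and 0.87 for Acvrl1, each with 1 pathway gene and 2 endothelial markers lower. The median of all genes was 0.47, 0.41 and 0.64 under these, and the share of calls that were higher was 74.2%, 79.6% and 79.4%, against 53.2% with TMM and 47.4% trend-removed. DESeq2 called 2 members lower (Id2 -0.54, Id3 -0.62). No filter on low counts left 1 pathway gene and 3 endothelial markers lower, with 8763 of 31220 genes past the test, 57.0% of them higher. With the median of the markers, Bmp2 was at -1.37, Bmp4 at -1.003, Acvrl1 at -1.04 and Smad6 at 0.051 relative to them. Trend-removed with GENCODE lengths, an alternative chosen after seeing the data, the ratios differed by 0.44 for Id1 to Id3, -0.20 for Bmp6 to Bmp4 and -0.52 for Smad6 to Id1. Relative to the markers, it gave 0.056 for Bmp4, -0.14 for Bmp6, -1.50 for Acvrl1, 0.49 for Eng, 0.040 for Id1, -0.19 for Id2, -0.40 for Id3 and -0.48 for Smad6. The cause of these differences was not tested.

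Leaving out 1 library at a time, as counted and trend-removed, gave 4034 to 11178 genes past the test, 1 to 5 members higher and 0 to 3 lower, 7 to 26 pathway genes higher and 1 to 10 lower, and 8 to 15 endothelial markers higher and 2 to 5 lower. These fits tested 14637 to 14922 genes, and 46.6% to 59.6% of the genes past the test were higher. The share of all genes called therefore changed from fit to fit. Log2 fold changes ranged from -1.24 to 0.36 for Acvrl1, -0.94 to 0.25 for Bmp2, 0.19 to 0.66 for Bmp4, 0.12 to 2.22 for Bmp6, 0.98 to 2.57 for Bmpr2, -0.47 to 0.57 for Id1, -0.59 to 0.33 for Id2, -0.74 to 0.13 for Id3 and -0.078 to 1.75 for Smad6. Outside the set they ranged from -0.31 to 1.02 for Atoh8, -0.59 to 1.27 for Bmp1, -0.40 to 1.22 for Bmp7, -0.69 to 1.29 for Smad7 and -0.25 to 1.68 for Tcf3.

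Deviations from the group means correlated between same-numbered libraries at r = 0.0386, -0.231 and -0.0126 for replicates 1, 2 and 3. Between unlike-numbered libraries r ran from -0.269 to 0.261. With 3 libraries per group, such values cannot show whether the numbers pair the samples. With the replicate block 7618 of 14370 tested genes passed, 53.4% of them higher, against 9037 passing without it. The block left 4 members higher and 0 lower, 17 pathway genes higher and 1 lower, and 12 endothelial markers higher and 3 lower. Bmp2 had the fewest reads of the members, 14 to 43 per library.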
